A study of Mus musculus with 4 samples.

Results

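The genes described here are Atf2 and its closest relatives, Atf7 and Creb5, 3 of the 21887 protein-coding genes that RefSeq places on mouse chromosomes 1-19, X and Y in the build mm10 (GRCm38.p6). They were chosen by name and not by a measured value, but earlier results of these data were known when they were chosen. In each of 4 deposited peak lists, every peak was collected whose summit lay over 1 of these genes or within 50 kb of it, and a summit within 1 kb of either end of a gene was called an end peak. The lists come from CUT&Tag, in which a transposase, held at antibody-bound sites on chromatin, cuts out the DNA that is sequenced. The cells were haematopoietic stem cells of wild-type C57BL/6J mice, sorted from bone marrow as CD48-CD150+LSK cells, at 2000 to 5000 cells a library, and no cells of another genotype or treatment are compared here. A pair of libraries was made with an antibody against ATF2 phosphorylated at T69/71 (the antibody field gives T67/71), and a pair with an antibody against ATF2 phosphorylated at S490/498. The labels name ATF2 alone as the target of both antibodies, and recognition of ATF7 or CREB5 by them was not tested. Control libraries are not analysed here, and no label states that the paired libraries came from separate mice, so a p-value measures only the spread between these libraries, which may be technical.

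ATF2, ATF7 and CREB5 are leucine-zipper transcription factors of the ATF/CREB family that share a zinc finger and paired threonines near the N-terminus, which stress-activated kinases phosphorylate in ATF2. They bind DNA as dimers, with themselves or with Jun and related proteins. Their preferred sequence is the cAMP response element, CRE, and dimers with Jun also bind near relatives of the AP-1 site. Genes of stress-responsive factors often carry such elements in their own promoters, which is the question that peaks at these 3 genes address.

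The lists differ in length, and 1 library stands apart. They hold 12464 peaks in T69/71 replicate 1, 14716 in T69/71 replicate 2, 7132 in S490/498 replicate 1 and 435 in S490/498 replicate 2 on these chromosomes. The genome-wide background coverage recovered from the peak values was 0.117, 0.105 and 0.0874 in the first 3 and 1.52 in S490/498 replicate 2, which is 17.4 times that of its partner. Why the list of that library is short was not tested, so a region with no peak in it cannot be told apart from a region missed there. Among the 435 strongest peaks of each library, T69/71 replicate 1 shared 79.5% with S490/498 replicate 1 but 54.3% with T69/71 replicate 2, so the antibody labels do not order the libraries by likeness. Of markers of the cells and of other lineages, 2 of 10 stem cell genes (Hlf and Runx1), 0 of 5 B lymphoid, 1 of 5 T lymphoid (Cd3d), 2 of 5 myeloid (Mpo and Ctsg) and 0 of 5 erythroid genes had an end peak in both T69/71 libraries, as did 21.1% of all protein-coding genes. The T lymphoid gene Cd3d had folds of 16.7, 11.6 and 13.6 in the first 3 libraries. These lay above those of Hlf (6.91, 5.98 and 11.8) and Runx1 (4.24, 4.32 and 6.49). Of the genes that define the gate, Kit had an end peak in T69/71 replicate 1 alone and Slamf1 and Ly6a in no library, but a peak of a transcription factor is not a measure of expression.

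The promoters that the peaks covered are shown first, since the peaks at Creb5 covered CRE and AP-1 letters in them. Sequences are from RefSeq (GRCm38.p6) and give the 250 bases before each annotated start, 5′ to 3′ on the gene's strand; all 3 genes were matched. Atf2 and Atf7 each have 1 start in that table and Creb5 has 2, the second 286 kb inside the gene. The windows are chr2:73892640-73892889 (minus strand) for Atf2, chr15:102625465-102625714 (minus strand) for Atf7, and chr6:53287053-53287302 and chr6:53573124-53573373 (plus strand) for the upstream and internal starts of Creb5. Capitals mark every match to the CRE (TGACGTCA) or to the AP-1 site (TGANTCA), searched on both strands.
Atf2 start: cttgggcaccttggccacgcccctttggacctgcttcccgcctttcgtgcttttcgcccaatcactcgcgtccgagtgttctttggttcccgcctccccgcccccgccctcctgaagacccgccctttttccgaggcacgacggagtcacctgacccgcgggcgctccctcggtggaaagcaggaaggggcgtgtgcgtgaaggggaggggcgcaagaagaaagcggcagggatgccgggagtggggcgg
Atf7 start: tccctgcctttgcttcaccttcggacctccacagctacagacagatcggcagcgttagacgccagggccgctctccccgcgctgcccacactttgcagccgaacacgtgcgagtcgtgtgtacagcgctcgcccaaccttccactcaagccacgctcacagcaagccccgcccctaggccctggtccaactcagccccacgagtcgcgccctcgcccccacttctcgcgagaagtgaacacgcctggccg
Creb5 upstream start: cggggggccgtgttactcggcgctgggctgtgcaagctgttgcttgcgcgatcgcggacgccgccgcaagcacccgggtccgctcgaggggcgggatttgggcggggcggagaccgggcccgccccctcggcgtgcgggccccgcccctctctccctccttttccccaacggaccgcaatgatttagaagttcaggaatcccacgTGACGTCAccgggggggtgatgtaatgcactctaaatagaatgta
Creb5 internal start: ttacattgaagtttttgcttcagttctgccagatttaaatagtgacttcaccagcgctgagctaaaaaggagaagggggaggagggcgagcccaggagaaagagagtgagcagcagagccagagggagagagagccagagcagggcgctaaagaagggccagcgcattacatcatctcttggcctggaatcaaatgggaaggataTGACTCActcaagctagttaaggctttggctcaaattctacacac

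Creb5 thus holds a CRE before its upstream start, at bases -45 to -38, and an AP-1 match before its internal start, at bases -45 to -39, counted back from the start base. No CRE, AP-1 match or shorter core TGACG was found in the windows of Atf2 and Atf7, which says only that these letters are not in them. The core TGACG is also part of the CRE, and its only matches here lay inside the CRE of Creb5. Over the whole windows of 250 bases before and 50 after each of 32851 RefSeq starts, 1.79% held the CRE, 20.8% the core and 7.81% the AP-1 match. These starts are of all genes, and 21263 of them belong to protein-coding genes. The 3 windows of Atf2, Atf7 and the upstream start of Creb5 were rich in CpG, with 28, 25 and 31 CpG in 300 bases, whereas the internal start of Creb5 had 4; the median of all starts was 7.

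Creb5, whose product binds the CRE like ATF2, carried the strongest peaks of the 3 genes. It lies on chr6:53287226-53700364, plus strand (413 kb). Fold enrichment here is the authors' ratio of signal to local background at the summit. As solved here, 1 is added to both terms of that ratio, so where background is low the value mostly follows the signal. The local background at the upstream start was 2.78, 0.748 and 1.66 in the first 3 libraries. The end peak there had a fold of 15.1 in T69/71 replicate 1, 13.2 in T69/71 replicate 2 and 14.3 in S490/498 replicate 1, and no peak in S490/498 replicate 2. The nearest peak of that last library lay 203 kb from the gene. In the other 3 libraries the values lay close together and the antibodies overlapped.

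The peak at the upstream start spanned chr6:53286824-53287547 in T69/71 replicate 1 (724 bp), chr6:53287077-53287356 in T69/71 replicate 2 (280 bp) and chr6:53287062-53287528 in S490/498 replicate 1 (467 bp). Their summits fell within 84 bp of each other. The recovered pileup at the summit, called fragments here and below, was 56, 22 and 37 in the same order. Whether it counts fragments or extended reads, and whether duplicates are in it, is not given by the sources used here. By −log10 q, these peaks stood among the strongest 2.48%, 7.92% and 3.46% of their lists. Each of them covered the CRE, and the summit lay 17.5, 19.5 and 64.5 bp from its centre. Across all starts with exactly 1 CRE and a summit within 1 kb, the median distance was 52.5, 53.5 and 53.5 bp (358, 287 and 298 starts), and 7.54%, 14.6% and 58.4% of these starts had a summit as near as Creb5 did. The position at Creb5 was therefore closer than most in the T69/71 libraries and ordinary in S490/498 replicate 1.

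A second strong peak lay over the internal start of Creb5, 286 kb from the upstream one. Its fold enrichment was 17.3 in T69/71 replicate 1, 11.1 in T69/71 replicate 2 and 12.4 in S490/498 replicate 1, and S490/498 replicate 2 again had no peak. The peak spanned chr6:53573015-53573417 (403 bp), chr6:53573167-53573415 (249 bp) and chr6:53573015-53573397 (383 bp) in that order. The summits rested on 48, 18 and 27 fragments. They fell within 5 bp of each other, at 43, 48 and 48 bp before the start, and each lay 1 to 6 bp from the centre of the AP-1 match printed above. Across starts with exactly 1 AP-1 match and a summit within 1 kb, the median distance was 139, 132 and 155 bp (271, 274 and 157 starts), and 1.11%, 1.46% and 1.91% had a summit as near. These shares are descriptions, because starts are not replicates.

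**Figure D1:**
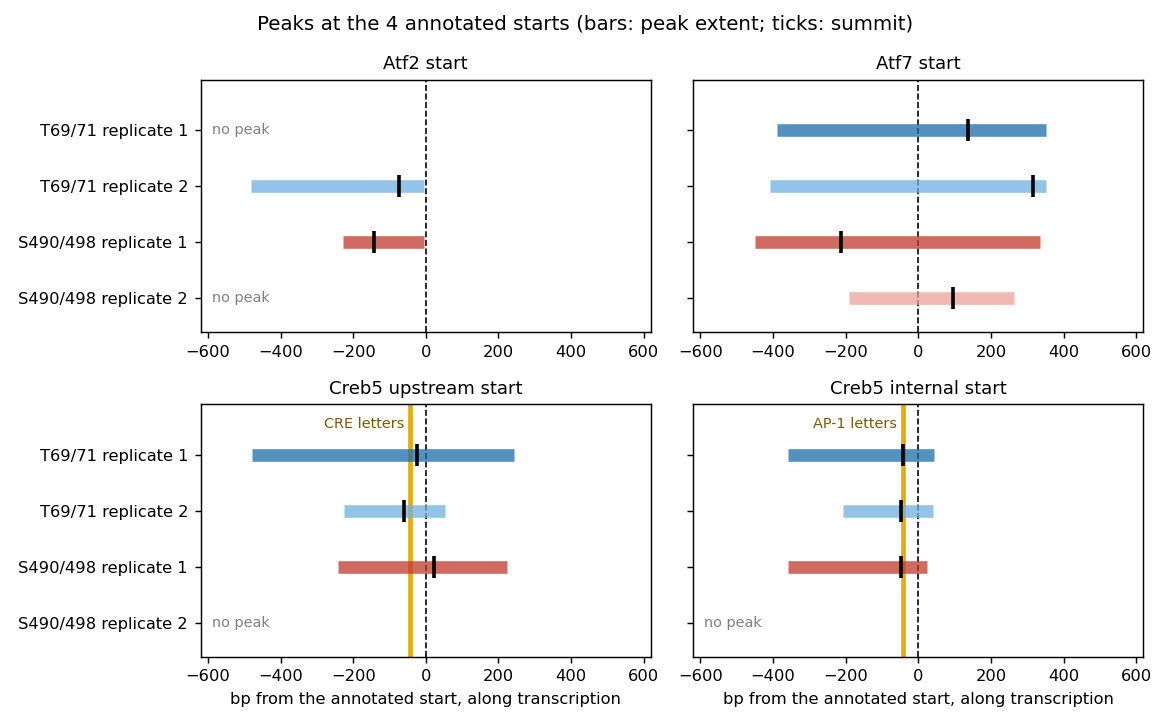
Extent of each peak (bar) and its summit (black tick) at the 4 annotated starts, in bp from the start along transcription (dashed line), with 1 row per library; the yellow band marks the CRE or AP-1 letters. At the internal start of Creb5 the 3 summits sit within 5 bp of each other on the AP-1 letters, Atf7 has a peak in all 4 libraries, and Atf2 has one in T69/71 replicate 2 and S490/498 replicate 1 only.

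A gene with peaks at a pair of distant starts was uncommon. Of 802 protein-coding genes with starts at least 10 kb apart, 35 (4.36%) had peaks within 1 kb of such starts in T69/71 replicate 1, 33 (4.11%) in T69/71 replicate 2, 13 (1.62%) in S490/498 replicate 1 and 0 in S490/498 replicate 2. Creb5 was among the 8 genes (0.998%) that did so in all of the first 3 libraries. This comparison was chosen after the Creb5 peaks had been seen.

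Atf7, whose product is also phosphorylated by stress kinases, was the only 1 of the 3 genes with a peak in every library. It lies on chr15:102525946-102625464, minus strand (99.5 kb), and the peak straddled its start. Its fold enrichment was 9.75 in T69/71 replicate 1, 10.4 in T69/71 replicate 2, 6.93 in S490/498 replicate 1 and 6.35 in S490/498 replicate 2. Both T69/71 values lay above both S490/498 values, but each fold is relative to the background of its own library, and 2 libraries against 2 allow no exact two-sided permutation p below 0.33.

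The Atf7 peaks spanned chr15:102625112-102625852 (741 bp), chr15:102625112-102625872 (761 bp), chr15:102625129-102625914 (786 bp) and chr15:102625200-102625655 (456 bp) in the same order of libraries. They were wide, against median widths of 302, 243, 290 and 411 bp in the 4 lists. The summits were scattered over 530 bp, at 137 and 317 bp after the start in the T69/71 libraries, 213 bp before it in S490/498 replicate 1 and 96 bp after it in S490/498 replicate 2. The fragments at the summit numbered 21, 20, 11 and 15. By −log10 q, the peak was among the strongest 15.2% and 13.7% of the T69/71 lists and 38.5% and 45.3% of the S490/498 lists. In each of the 3 libraries with peaks at both genes, the Atf7 peak was lower in fold and wider than the one at the upstream start of Creb5.

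Atf2 itself, the gene of the factor that both antibodies were raised against, had a peak in 2 of the 4 libraries, with folds above the medians of those lists (6.52 and 6.05). It lies on chr2:73816509-73892677, minus strand (76.2 kb), and the summits before its start lie in the long noncoding RNA gene Gm10822, so that the peak cannot be assigned to either gene. Fold enrichment was 7.43 in T69/71 replicate 2 and 7.40 in S490/498 replicate 1, and T69/71 replicate 1 and S490/498 replicate 2 had no peak there. The peaks spanned chr2:73892643-73893121 (479 bp) and chr2:73892643-73892868 (226 bp), with summits 74 and 142 bp before the start, 11 and 10 fragments at the summit, and ranks at 40.1% and 34.7% of the lists. The nearest summit of T69/71 replicate 1 was 267 kb from the gene, although that list is longer than the one of S490/498 replicate 1. The peak at Atf2 was thus not found in both libraries of either antibody. Of 6103 genes with an end peak in T69/71 replicate 2, 24.3% (95% exact binomial interval 23.3 to 25.4) had none in T69/71 replicate 1. Of 3917 genes with one in S490/498 replicate 1, 11.4% (10.4 to 12.4) had none in T69/71 replicate 1. In all, 207 genes (0.946%), Atf2 included, had an end peak in exactly these 2 libraries. By comparison, 3119 genes (14.3%) had one in these 2 and in T69/71 replicate 1 as well.

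Across the 3 genes, 2 had an end peak in T69/71 replicate 1 (27.5% of protein-coding genes), 3 in T69/71 replicate 2 (27.9%), 3 in S490/498 replicate 1 (17.9%) and 1 in S490/498 replicate 2 (0.224%). Atf7 and Creb5 had one in both T69/71 libraries, as did 21.1% of protein-coding genes, and in S490/498 replicate 1 as well, as did 14.3%. Atf7 had one in both S490/498 libraries, as did 0.178% of genes, and in all 4, as did 0.164%. With 3 genes, no share can be set against these values, and none was tested. No end peak lay at the 3′ end of any of the 3 genes: all summits within 1 kb of an end were at the start.

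The peaks at these loci were next compared between libraries. The 32 peaks within the 50 kb limits merged into 17 regions when those that overlapped by at least 1 bp were joined, 1 at Atf2, 5 at Atf7 and 11 at Creb5. Of these, 8 were found in 1 library, 4 in 2, 4 in 3 and 1 in all 4. Both T69/71 libraries had 8 of the regions and both S490/498 libraries had 1. S490/498 replicate 2 decided the latter count, since S490/498 replicate 1 alone had 7 regions, 5 of which were in both T69/71 libraries too. Both antibodies marked 6 regions, T69/71 alone 10 and S490/498 alone 1. Over the whole lists, the T69/71 libraries, with 12464 and 14716 peaks, had 7176 pairs of overlapping peaks. S490/498 replicate 1, with 7132 peaks, had 4868 such pairs with T69/71 replicate 1 and 4751 with T69/71 replicate 2. With S490/498 replicate 2, of 435 peaks, it had 187. At the 3 loci these pairs of peaks numbered 8, 5, 6 and 1 in the same order.

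Peaks of regions found in 3 or 4 libraries were stronger and wider than those found in 1, although the only region in all 4, the Atf7 start, had folds of 6.35 to 10.4. The 16 peaks of regions found in 3 or 4 libraries had a median fold of 10.8 (6.35 to 17.3), a median width of 462 bp and a median of 21.5 fragments at the summit. The 8 peaks of regions found in 1 library had a median fold of 4.81 (3.58 to 6.35), a median width of 198 bp and a median of 5 fragments, with 3 at the lowest. These peaks were called from the same reads that set their fold, so the order is a description and depth cannot be told apart from presence.

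**Figure D2:**
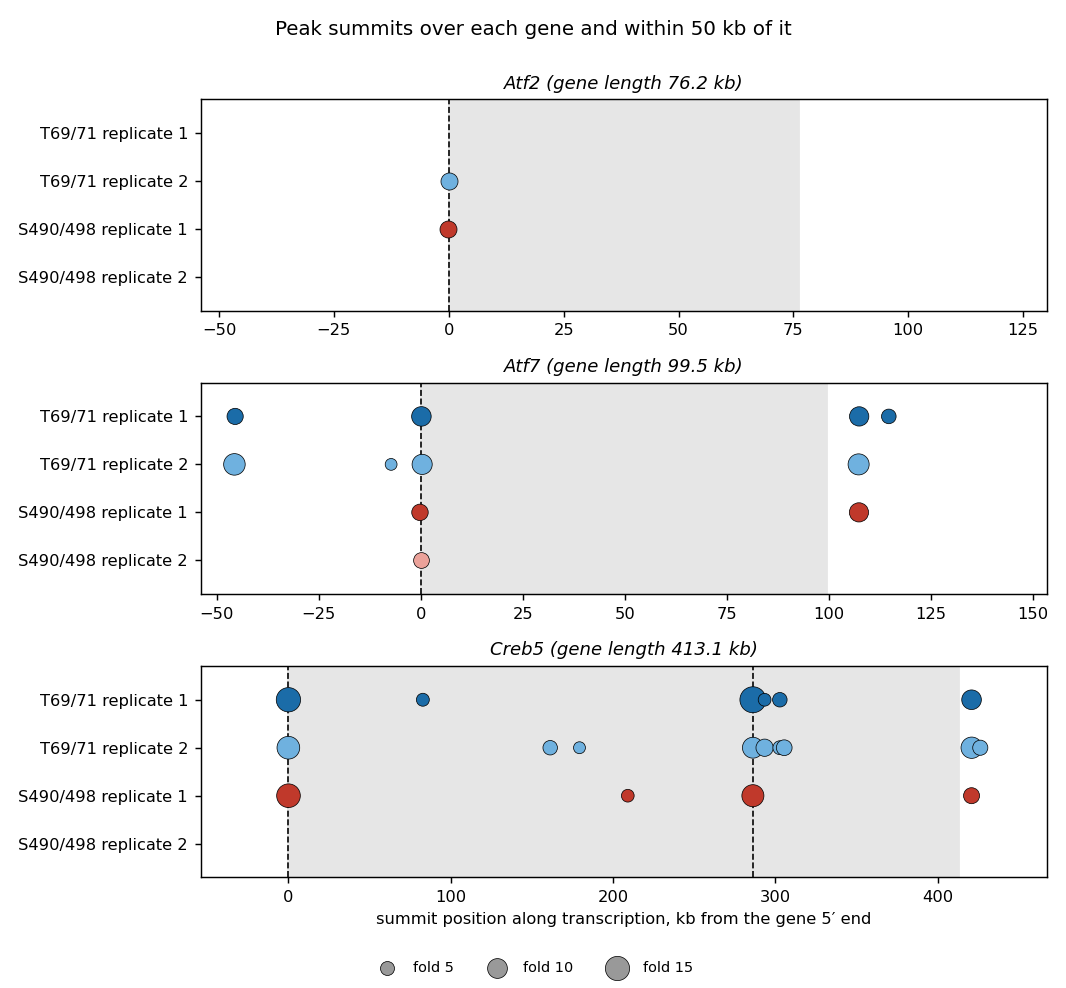
Position of every summit over Atf2, Atf7 and Creb5 and within 50 kb of them, in kb from the gene's 5′ end along transcription; the grey band is the gene, dashed lines are annotated starts, rows are libraries and the area of a point is proportional to fold enrichment. Points at the Atf7 start, at both Creb5 starts, at 107 kb in the Atf7 panel and at 421 kb in the Creb5 panel recur in at least 3 rows. The points at 107 kb and 421 kb lie past the 3′ end of the gene.

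Inside Creb5, away from its starts, 7 regions were marked. A region 293 kb from the 5′ end had folds of 4.18 and 7.63 in T69/71 replicates 1 and 2, and another at 303 kb had 5.37 and 4.92; the latter lies in the noncoding gene Gm33392, which is nested in Creb5. Both T69/71 libraries had these 2 regions, and neither S490/498 library did. The remaining 5 regions, at 82.8, 161, 179, 209 and 305 kb, were found in 1 library each with folds between 3.62 and 6.35. The region at 305 kb lay within 1 kb of the annotated start of Gm33392, and the one at 293 kb within 1 kb of an end of Gm33392. Beyond the 3′ end of Creb5, a region 7.6 kb past the gene was found in 3 libraries. Its fold was 9.82 in T69/71 replicate 1, 11.6 in T69/71 replicate 2 and 6.55 in S490/498 replicate 1, and its summits fell within 68 bp of each other. It spanned chr6:53707783-53708188 over the 3 libraries, and no annotated gene start or end lay within 1 kb of its summits. Of the 5 regions found in 3 or more libraries at these loci, it alone stood away from a start. A weaker peak 13.0 kb past the gene was found in T69/71 replicate 2 alone, with a fold of 5.85.

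Around Atf7 the other recurrent peaks lay at the starts of neighbouring genes. A region 7.84 kb past the 3′ end of Atf7, at chr15:102517859-102518807, had folds of 9.52, 11.4 and 9.42 in T69/71 replicates 1 and 2 and S490/498 replicate 1. It covers a start of Tarbp2 inside that gene, whose product is a partner of Dicer in microRNA processing, and stands near the start of Map3k12, a kinase upstream of JNK. The outer ends of Tarbp2 had no end peak in any library. A summit there was 966 bp from the end of Map3k12 in T69/71 replicate 1, just inside the 1 kb limit, and 1022 and 1104 bp from it in the other libraries, just outside. On the other side, the start of Atp5g2, a subunit of the mitochondrial ATP synthase, carried a peak of fold 6.72 in T69/71 replicate 1 and 11.9 in T69/71 replicate 2, and none with S490/498. That region lay 45.5 kb from Atf7, just inside the 50 kb limit, while the start of Pcbp2, at 55.5 kb and just outside, had folds of 10.4, 14.4 and 7.59 in the first 3 libraries. Single peaks were found in T69/71 replicate 1 at the internal start of Map3k12 (fold 5.45) and in T69/71 replicate 2 at 7.29 kb before the Atf7 start (fold 3.58). Around Atf2, by contrast, neither neighbour had an end peak in any library: Chn1, a Rac regulator, and Atp5g3, which encodes the same ATP synthase subunit as Atp5g2.

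**Figure D3:**
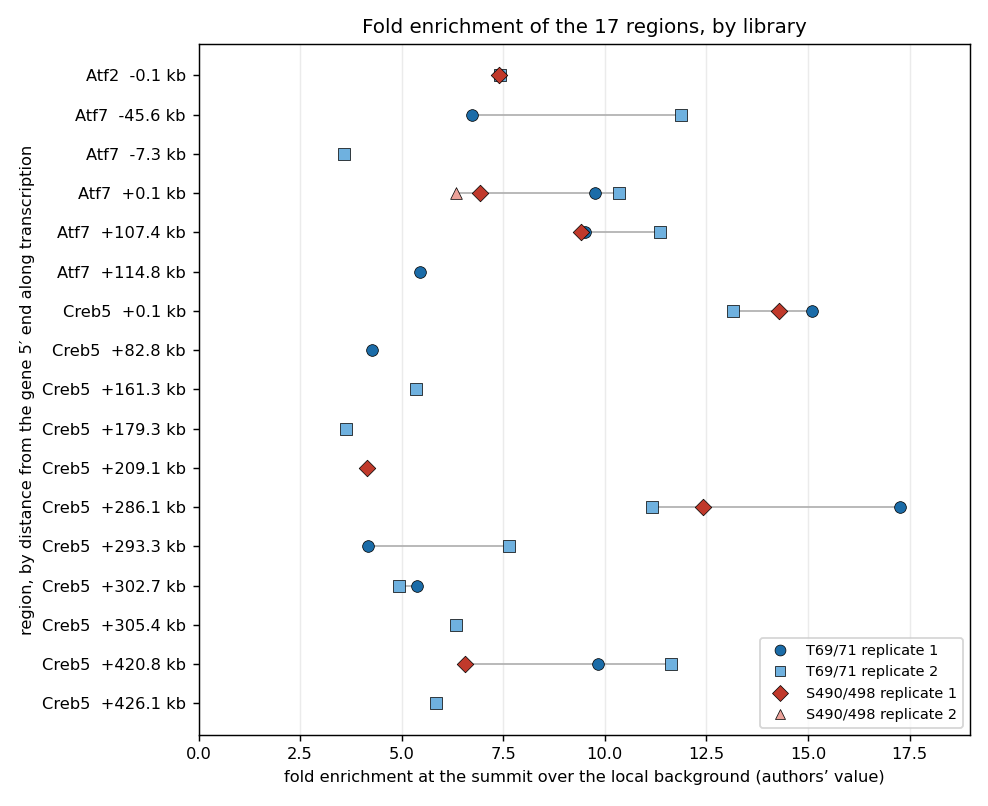
Fold enrichment (the authors' value) of the 17 regions, labelled by gene and by distance from its 5′ end in kb, with 1 symbol per library in which a peak was called. The folds at the starts of Creb5 run from 11.1 to 17.3, the upstream start is the highest region in T69/71 replicate 2 and S490/498 replicate 1 and the internal start in T69/71 replicate 1, and the regions with a single symbol lie between 3.58 and 6.35.

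The number of summits followed the length of the lists. Over the 3 loci there were 10 summits in T69/71 replicate 1, 14 in T69/71 replicate 2, 7 in S490/498 replicate 1 and 1 in S490/498 replicate 2. As a share of the list these are 0.0802% (95% exact binomial interval 0.0385 to 0.147), 0.0951% (0.0520 to 0.160), 0.0981% (0.0395 to 0.202) and 0.230% (0.00582 to 1.27), and the intervals overlap. The mean was 12 summits with T69/71 and 4 with S490/498 (exact two-sided permutation p = 0.33, adjusted p = 0.444 over 4 tests, where 0.33 is the smallest p the design allows). For Atf7 the means were 4 and 1.5 (exact permutation p = 0.33), for Creb5 7.5 and 2 (exact permutation p = 0.33) and for Atf2 0.5 and 0.5 (exact permutation p = 1).

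Creb5 had many summits for a gene but not for its length. In T69/71 replicate 2 its window of 513 kb held 9, and 0.754% of protein-coding genes had at least as many; the shares for its 6 summits in T69/71 replicate 1 and 4 in S490/498 replicate 1 were 4.37% and 5.38%, and S490/498 replicate 2 had 0 there. Per 100 kb, however, it had 1.75 summits, and 32.9% of genes were at least as dense. Atf7 had 2.00 summits per 100 kb in each T69/71 library, with 22.9% and 25.7% of genes at least as dense, and Atf2 had 0 and 0.568. A summit within these limits was common among all genes, at 63.5%, 66.4%, 50.7% and 2.86% in the 4 libraries.

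The genes most like each member were those with end peaks in the same libraries and the smallest Euclidean distance in log2 fold enrichment. For Creb5, among 3082 genes marked in the same 3 libraries, these were Rps29, Zfand2a, Ankrd11, Ilvbl and Gatad2a, at distances from 0.05 to 0.09. Rps29, a ribosomal protein gene, had folds of 14.9, 13.4 and 14. For Atf7, among 35 genes marked in all 4 libraries, they were Calr, Mgat1, Dnajc11, Sp1 and Dcaf6, at distances from 0.42 to 0.66. Calr, a chaperone of the endoplasmic reticulum, had folds of 10.6, 13.6, 6.92 and 5.95. For Atf2, among 206 genes marked in the same 2 libraries, they were Mcm10, Gm42166, Ifnar2, Epc1 and Cab39l, at distances from 0.04 to 0.20. Mcm10, a replication initiation factor, had folds of 7.56 and 7.58. Some of these genes share an end with another gene, to which the peak could also belong. The other gene is protein-coding for Cab39l (Gm45935 and Setdb2) and Dcaf6 (Mpc2). It is noncoding for Rps29 (Rn7s1), Ankrd11 (2810013P06Rik), Calr (1700122E12Rik) and Mgat1 (Gm51893). The distances cover 3, 4 and 2 libraries and pools of different size, so they are not compared between the members.

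The partners of ATF2, and kinases and coactivators linked to it, were counted by the same rule, and no test was run on either list. They are set against all protein-coding genes, not against genes alike in promoter CpG or expression. The part of these in the shares was not tested. Both lists were drawn up with earlier results of these data known. Of 25 dimer partners and family members other than the 3 genes, 15 (60.0%) had an end peak in both T69/71 libraries, against 21.1% of genes. In S490/498 replicate 1 the count was 13 (52.0%, against 17.9%). In S490/498 replicate 2 it was 1 (against 0.224% of genes), Jund, which was named after its values were seen. Jund had no end peak in any other library. Jun, the main dimer partner of ATF2, had folds of 18.2, 14.6 and 15.4 in the first 3 libraries, which is above Creb5 at its upstream start. Fosb, another AP-1 subunit, had 14.5, 9.67 and 12.4. Ddit3, a stress factor whose peak also lies near an end of Mbd6, had 9.20, 8.02 and 6.68. Fosl2 had 10.3, 10.9 and 8.93. Another 7 of the 25, among them Batf, Batf2 and Batf3, had no end peak in any library. Of all protein-coding genes, 35.4% had one in at least 1 library.

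The other list held 19 kinases and coactivators linked to ATF2, directly or through its kinases. Of these, 11 (57.9%, against 21.1% of genes) had an end peak in both T69/71 libraries and 8 (42.1%, against 17.9%) in S490/498 replicate 1. Plk3, a stress-responsive kinase, had folds of 14.2, 11.3 and 10.3 in the first 3 libraries. Mapk8, which encodes JNK1, had 13.5, 15 and 10.5, and Mapk9, which encodes JNK2, had 8.02, 14.5 and 8.0. Atm, the DNA damage kinase known to phosphorylate the S490 and S498 residues, had 9.37, 11.2 and 11.4 at an end it shares with Npat. None of the 19 had an end peak in S490/498 replicate 2, where 0.224% of genes had one. No library had an end peak at 6 of them, among them Mapk10, Mapk11 and Mapk13, whereas 35.4% of genes had one in at least 1 library.

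**Figure D4:**
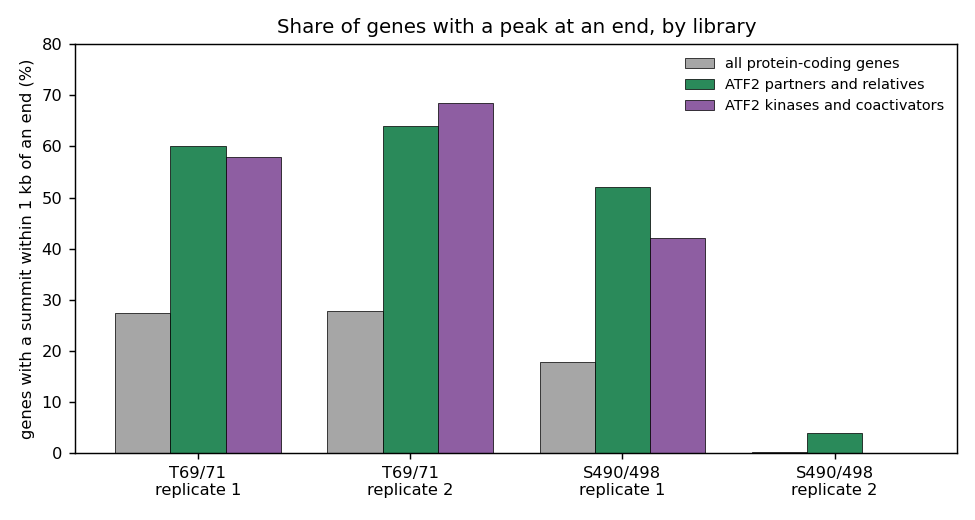
Percentage of genes with a summit within 1 kb of an end in each library. Bars show all 21887 protein-coding genes (grey), 25 partners and relatives of ATF2 (green) and 19 kinases and coactivators linked to ATF2 (purple). In the 3 longer lists both gene groups stand above the grey bar of the same library. The groups were not matched to the other genes in promoter CpG. In S490/498 replicate 2 the bars stand for 1 of 25 partners and none of the 19 kinases and coactivators.

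The letters found at Creb5 were also set against the peaks of the whole lists, over the starts of all genes, protein-coding or not. Among starts with a summit within 1 kb, 5.35%, 4.31%, 6.87% and 6.56% held the CRE in the 4 libraries, against 0.837%, 1.12%, 0.984% and 1.78% of starts without a summit. For the AP-1 match the order was the opposite, at 4.03%, 4.09%, 3.60% and 0 of 61, against 8.82%, 8.80%, 8.47% and 7.82%. Starts with a summit were richer in CpG, with a median of 23, 23, 24 and 19 in 300 bases against 7 over all starts, and the part of base composition in these shares was not tested. With its CRE and 31 CpG, the upstream start of Creb5 lay above the median CpG of the marked starts, and the internal start, with an AP-1 match and 4 CpG, lay below it.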

How the data were processed

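Each library has its own list of peaks. Bowtie2 2.2.9, FastQC 0.11.5, ChIPseeker, MACS2 and the build mm10 are named in the submitters' processing notes. For peak-calling settings and duplicate reads the sources used here give nothing. The authors deposited for each peak the fold enrichment at its summit (a ratio to local background), −log10 p and −log10 q values, and a score that is −log10 q times 10 as a whole number. All q values lie at or under 0.05. Peak names inside the lists do not state the antibody site: they read ATF2-1 in T69/71 replicate 1, P-ATF-1 in T69/71 replicate 2 and ATF2-2 in both S490/498 libraries, and the libraries are called here by their labels.

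Gene ends and starts came from RefSeq tables of GRCm38.p6. Peaks on other sequences (16 to 41 per list) were left out. The pileup was solved from fold enrichment and −log10 p under the MACS2 formulas within 0.001, for 99.8% to 100% of peaks with −log10 p of at most 250. Intervals cover counting error only. Depth in reads is not given by peak lists. The steps were tested on simulated data (Python 3.11.15, SciPy 1.17.1). Alternatives were stricter q values, lists cut to equal length, other windows, other rules of sharing and leaving out each library. Genes named were the members, their neighbours, the 5 genes most alike and up to 4 examples of each list; the members and lists were chosen with earlier results of these data known. Protein sequences were not used here.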

Additional observations from a re-analysis of the deposited data

How the results depend on the processing

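With 2 libraries an antibody, the exact permutation test cannot give a p below 0.33. The count of genes with an end peak in both T69/71 libraries (2) and the count of regions in both (8) fell to 0 and 0 when every list was cut to its 435 strongest peaks, and the regions fell to 5 with −log10 q of at least 10. The cuts leave fewer peaks by construction. The counts of 1 gene and 1 region in both S490/498 libraries, and of 1 gene and 1 region in all 4, fell to 0 under either of these settings. The regions in both S490/498 libraries and in all 4 also fell to 0 when summits had to lie within 200 bp, because the Atf7 summits are scattered. Leaving out a library moved the genes with an end peak between 2 and 3 (T69/71), 1 and 3 (S490/498) and 1 and 2 (all 4), and the regions between 10 and 14, 1 and 7, and 1 and 5; without S490/498 replicate 2, the S490/498 counts were 3 genes and 7 regions and the counts over all remaining libraries 2 genes and 5 regions, and without T69/71 replicate 1 the T69/71 counts were 3 genes and 14 regions. Windows of 500 bp and 2 kb, overlap in place of the summit, −log10 q of at least 5 and annotated starts in place of ends (the last added after seeing the data) left the end-peak counts as they were.

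The difference in summits per library, 8 over the 3 genes, was 0 in lists of 435 peaks, where for Atf7 it turned from 2.5 to -0.5. It was 3 when the 3 longer lists were cut to equal length, 4 with −log10 q of at least 5 or 10, and from 5 (without S490/498 replicate 2) to 11 (without S490/498 replicate 1) with a library left out. For Creb5, at 5.5, it was 1.5 in the 3 longer lists at equal length, 0.5 in lists of 435 peaks and 2.5 and 2 at the stricter q values, and from 3.5 (without S490/498 replicate 2) to 7.5 (without S490/498 replicate 1) with a library left out. For Atf7 it was 1.5 in the 3 longer lists at equal length, with −log10 q of at least 5 and with a window of 25 kb. For Atf2, at 0, it was 0.5 with a window of 100 kb and between -0.5 and 0.5 with a library left out. Libraries with the same replicate number share only a number; deviations from the antibody means correlated at 0.33 over 157 regions, and with a replicate block the difference of 8 had an exact permutation p of 0.5, the smallest a block allows. Over the other settings the exact p ranged from 0.33 to 1.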

Other observations

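In 3 places at these loci, peaks of different libraries began at exactly the same base. At Atf7 the lower edge was 102625112 on chromosome 15 in both T69/71 libraries. At the internal start of Creb5 it was 53573015 on chromosome 6 in both replicates 1, and at Atf2 it was 73892643 on chromosome 2 in T69/71 replicate 2 and S490/498 replicate 1. These are 3 of 22 overlapping pairs of peaks at the 3 loci. Over all pairs of libraries, 5.38% of 17440 overlapping pairs shared the lower edge, from 5.16% to 7.43% by pair of libraries, within and between antibodies alike.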
